A study of Mus musculus with 18 samples.

Results

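The interferon response genes examined here are 37 mouse genes that carry, sense or execute the antiviral response to interferon, taken by gene symbol from the 24072 genes of the deposited expression table. All 37 were found there. They were followed in cells that the labels call pro-B cells, grown from fetal liver of C57BL6/J background. In wild type, pro-B cells are the earliest cells committed to the B lineage. The 3 genotypes were wild type (WT), Ebf1 knock out (Ebf1-/-, called Ebf1-KO) and Pax5 knock out (Pax5-/-, called Pax5-KO), each with 3 RNA-seq and 3 ATAC-seq libraries, where ATAC-seq reads accessible chromatin. Ebf1 and Pax5 encode transcription factors needed for B-cell commitment, so the label does not show that the knockout cells were committed. All cultures of all 3 genotypes grew on OP9 stromal cells, a mouse stromal line, in medium with interleukin-7 and the ligands of KIT and FLT3, and none was labelled as treated with interferon. The age of the fetuses, the exact alleles and the number of fetuses behind a library were not stated in the labels used here, and p-values here reflect only how much these libraries vary, which may be technical.

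Type I interferons bind a surface receptor made of the IFNAR1 and IFNAR2 chains. The kinases JAK1 and TYK2 then phosphorylate STAT proteins, STAT2 among them, which join IRF9 and bind the interferon-stimulated response element in the promoters of antiviral genes. Sensors of foreign nucleic acid start the circuit by inducing interferon, and a part of the antiviral genes, the IFITM family among them, is also kept on in stem and progenitor cells without an infection.

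RNA levels are given as exon reads per 10 M mapped reads, and changes as log2 fold changes of the level plus 1. In the knockouts the median gene was itself above WT, by 0.31 with Ebf1 deleted and 0.28 with Pax5 deleted on the log2 scale, against 0.05 between the knockouts. Each RNA change below is therefore given less that median. A change was called when its adjusted p, from limma over 12839 genes and before subtracting the median, was under 0.05. That fit did not pair libraries by replicate number. Mapped RNA reads ran from 27.3 to 89.1 M per library and exon reads from 15.6 to 63.6 M, 47.0 to 71.4% of those mapped. Both comparisons against WT share the same 3 WT libraries.

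The genotypes differed in more than the deleted gene. Pax5 averaged 1521 ± 179 in WT (SD, n = 3), 109 ± 17.5 in Pax5-KO and 13.1 ± 3.96 in Ebf1-KO. Ebf1 averaged 3969 ± 634, 1515 ± 169.9 and 1465 ± 131 in WT, Pax5-KO and Ebf1-KO, and which part of the gene the Ebf1 allele lacks was not given, so reads over its exons check that label only in part. Xist ran from 41026 to 47861 in the Ebf1-KO libraries against 1.59 to 42.8 in the others, and 4 Y-linked genes were at or below 2.75 in Ebf1-KO against 389 to 1081 elsewhere. In these data the Ebf1 genotype and the sex of the cells therefore cannot be told apart, and 0 of the 37 members lie on the X or Y chromosome. The summed level of 11 pro-B markers ran from 26844 to 27870 in WT, from 3762 to 3800 in Ebf1-KO and from 8343 to 11951 in Pax5-KO. For 9 plasmacytoid dendritic cell markers the sums were 2905 to 2977, 13463 to 14791 and 6594 to 7780, in the same order. For 10 myeloid markers they were 7.75 to 16.5, 774 to 1016 and 70.0 to 99.8. For 11 markers of T, NK and innate lymphoid cells they were 13.7 to 14.6, 1557 to 1629 and 89.7 to 156. The 11 stromal markers summed to 46.5 to 213, 379 to 459 and 36.7 to 166, with 2 of them at 0 in every library. The pro-B list had 10 of 11 tested markers lower in both knockouts. In Ebf1-KO the plasmacytoid list had 5 of 8 tested markers higher and 3 lower, the myeloid list 4 of 5 higher and 1 lower, and the T, NK and innate list 10 of 10 higher. Among the stromal markers 1 of 7 tested was called, Pdgfrb, with means of 0.523, 373 and 25.4 in the same order. The part of these marker levels in the RNA results below was not tested. In bulk RNA, fewer cells of a type and less RNA per cell cannot be told apart.

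Of the 37 members, 29 had enough reads to be tested. The 8 left out were Ifit1, Ifit3, Isg15, Oas1a, Oasl1, Mx1, Ifi44 and Zbp1, whose highest value in any library was 5.5. Isg15, the ubiquitin-like protein that is among the most strongly interferon-induced transcripts, stayed at or below 0.704 in all 9 libraries, and Oasl1 was at 0 in all of them. In Ebf1-KO against WT, 16 of the 29 tested members were called higher, 4 lower and 9 not called, so 69.0% were called beside 55.3% of all genes tested (40.8% higher and 14.4% lower). In Pax5-KO against WT, 10 were higher, 8 lower and 11 not called, or 62.1% beside 46.5% of all genes (34.7% higher and 11.9% lower). In Ebf1-KO against Pax5-KO, 15 were higher, 5 lower and 9 not called, or 69.0% beside 30.9% of all genes (17.5% higher and 13.3% lower). The median change of the tested members, less that of all genes, was 0.30, -0.06 and 0.51 in the 3 comparisons. With trimmed-mean (TMM) scaling in place of mapped reads the counts became 12 higher and 6 lower in Ebf1-KO, 8 higher and 9 lower in Pax5-KO, and 16 higher and 5 lower between the knockouts. Over all genes the shares with TMM were 30.3% higher and 27.5% lower, 26.5% and 23.2%, and 20.3% and 19.7%, in the same order of comparisons. With the replicate block the members called numbered 20, 20 and 23 of 29, and the shares of all genes called rose to 68.4%, 62.9% and 43.8%. The members' 69.0% in Ebf1-KO against WT, the same with the block, was then near the share of all genes. The authors' deposited tables of changed genes list 10 members as up and 5 as down in Ebf1-KO, and 6 as up and 8 as down in Pax5-KO. Their share over all genes was not counted. Every member listed there has an absolute log2 fold change of at least 1.01, a limit that the calls here do not have. Mx1 and Ifit3, untested here, are among those listed, so these counts cannot be set directly beside the calls above.

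**Figure D1:**
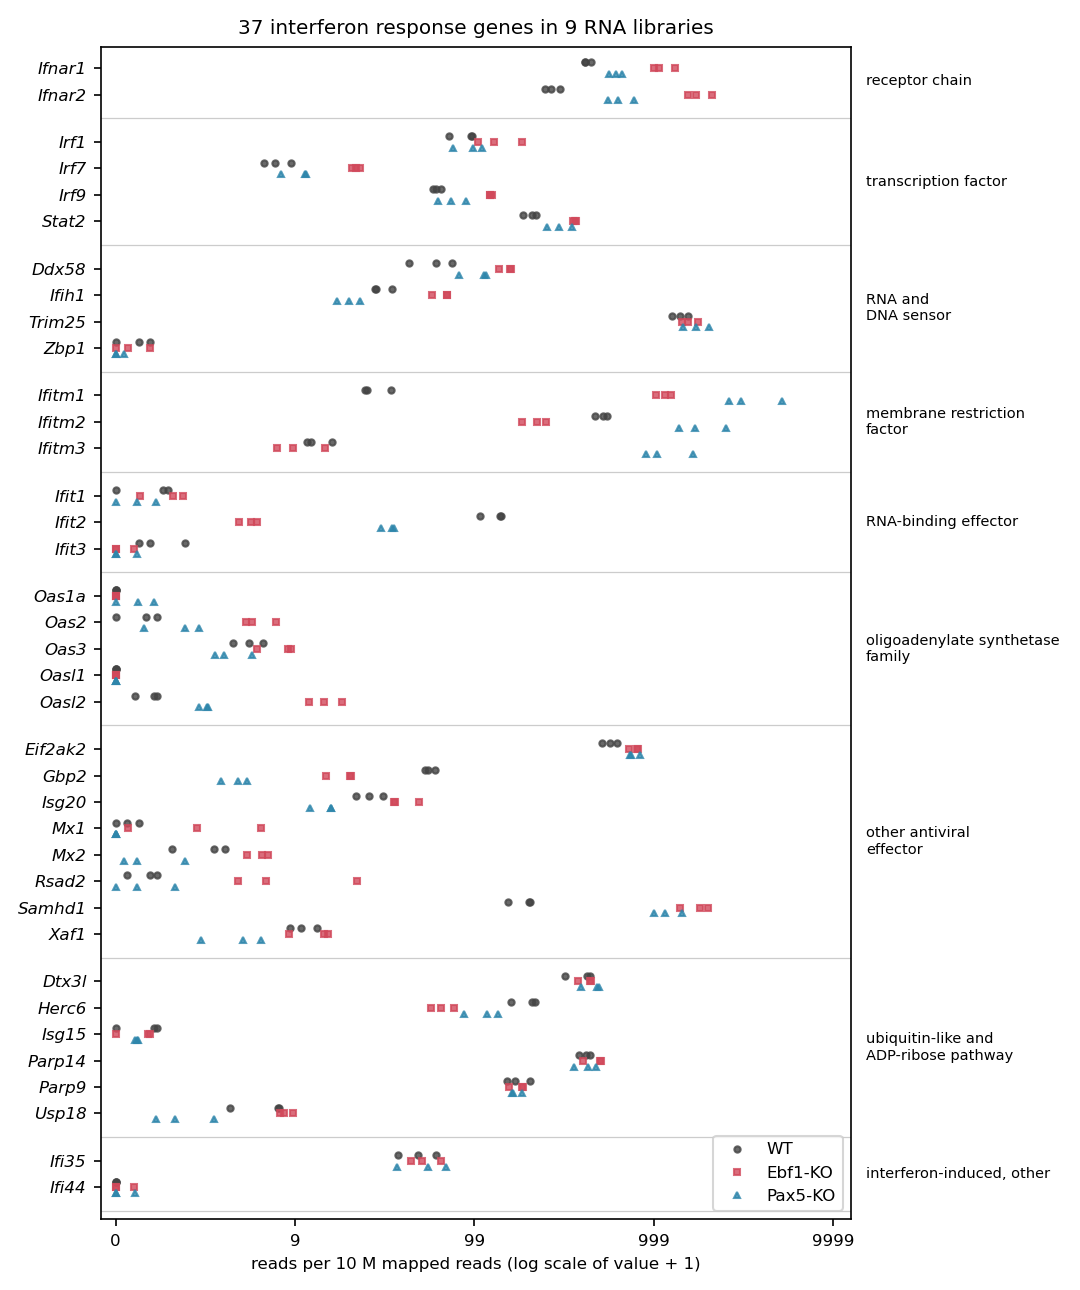
RNA level of each of the 37 members in each of 9 libraries, on a log axis of exon reads per 10 M mapped reads plus 1, grouped by the role of the gene; circles are WT, squares Ebf1-KO and triangles Pax5-KO. Isg15, Ifit1, Ifit3 and Oas1a lie near 0 in every genotype, while Ifitm1 runs from 23.5 in a WT library to 5193 in a Pax5-KO library.

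The members did not move as a block, and genes of 1 family moved in different directions. Summed over the 37 members, the level ran from 4818 to 5799 in WT, from 10072 to 11115 in Ebf1-KO and from 11101 to 17113 in Pax5-KO. Without the 3 Ifitm genes these sums were 4306 to 5214, 8854 to 9640 and 6172 to 7719. The Ifitm genes thus carried a large part of the Pax5-KO sum and a small part of the Ebf1-KO sum. Per kilobase of exon, the order of mean levels in WT was led by Ifitm2 at 822, Trim25 at 254 and Eif2ak2 at 132. In Ebf1-KO it was led by Ifitm1 at 1635, Ifnar2 at 594 and Samhd1 at 436, and in Pax5-KO by Ifitm1, Ifitm2 and Ifitm3.

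**Figure D2:**
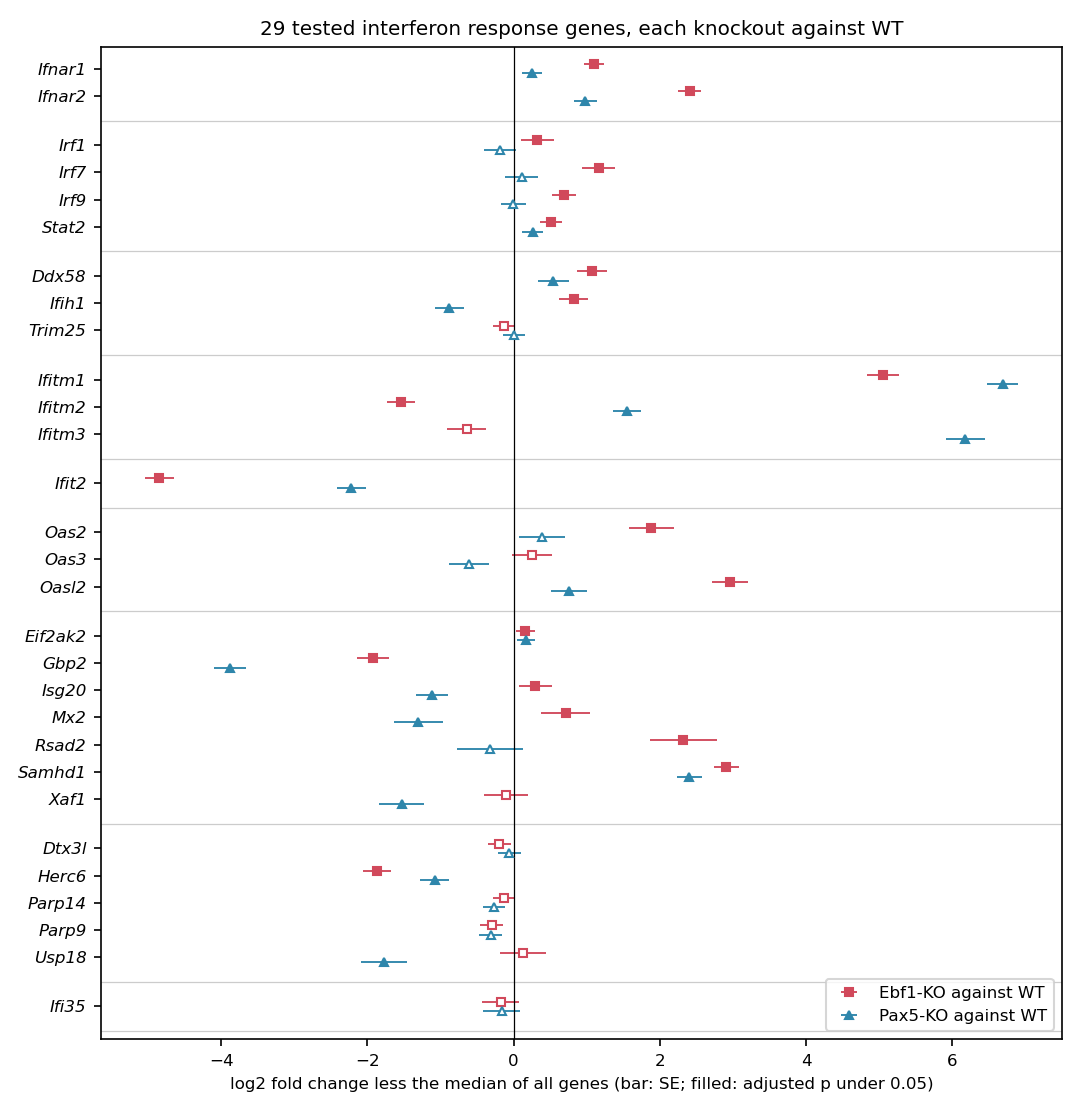
Log2 fold change of each of the 29 tested members in Ebf1-KO (squares) and Pax5-KO (triangles) against WT, less the median of all genes, with bars for the standard error; filled points passed an adjusted p of 0.05 in limma before the median was subtracted. Ifitm1 lies furthest right and Ifit2 and Gbp2 furthest left, and Ifitm2 and Ifih1 lie on opposite sides of 0 in the 2 knockouts.

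The promoters of the members were read for the core of the interferon-stimulated response element, GAAA then any 2 bases then GAAA, on either strand, with overlapping matches counted. In RefSeq windows of 300 bases (250 before to 50 after the start site, GRCm38.p6) the core stood in 1131 of 32851 windows, or 3.44%, and in 1079 of 27025 genes, or 3.99%. Of the 30 members with a window, 13 held it, or 43.3%, and 5 of these held 2 or more matches. The 13 were Ifit1, Ifit3, Isg15, Oas1a, Stat2, Oas3, Rsad2, Ddx58, Ifih1, Ifitm2, Ifitm3, Eif2ak2 and Gbp2, of which the first 4 were too low in RNA to be tested. Ifitm1, Ifit2, Ifnar1, Ifnar2, Samhd1 and Oasl2 had none in this window. Windows of the motif-bearing members that moved most are shown here from 250 bases before to 30 bases after the start site, in the direction of transcription, with the core in capitals. Ifitm3 (chr7:141010715-141010994, minus strand) and Ifitm2 (chr7:140955932-140956211, minus strand) lie in 1 gene cluster and moved differently in RNA, Gbp2 (chr3:142620413-142620692, plus strand) fell in both knockouts, and Rsad2 (chr12:26456423-26456702, minus strand) rose in Ebf1-KO. For Ifih1 only the 30 bases around its match (chr2:62646206-62646235, minus strand) are given, since it lies after the start site.
Ifitm3: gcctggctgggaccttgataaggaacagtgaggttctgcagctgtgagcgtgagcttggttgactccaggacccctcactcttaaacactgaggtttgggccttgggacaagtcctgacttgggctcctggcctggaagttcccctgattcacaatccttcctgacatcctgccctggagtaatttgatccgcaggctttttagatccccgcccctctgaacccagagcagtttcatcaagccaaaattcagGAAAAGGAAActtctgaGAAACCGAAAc
Ifitm2: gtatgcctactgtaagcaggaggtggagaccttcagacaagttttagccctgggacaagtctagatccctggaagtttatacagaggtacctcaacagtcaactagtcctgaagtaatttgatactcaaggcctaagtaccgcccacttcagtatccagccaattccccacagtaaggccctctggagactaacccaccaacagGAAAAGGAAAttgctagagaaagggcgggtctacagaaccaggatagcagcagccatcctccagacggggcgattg
Gbp2: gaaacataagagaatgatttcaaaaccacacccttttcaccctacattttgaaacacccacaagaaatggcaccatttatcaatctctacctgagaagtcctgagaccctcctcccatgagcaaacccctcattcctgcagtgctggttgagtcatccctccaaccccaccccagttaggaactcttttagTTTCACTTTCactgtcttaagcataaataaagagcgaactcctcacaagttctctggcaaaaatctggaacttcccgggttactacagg
Rsad2: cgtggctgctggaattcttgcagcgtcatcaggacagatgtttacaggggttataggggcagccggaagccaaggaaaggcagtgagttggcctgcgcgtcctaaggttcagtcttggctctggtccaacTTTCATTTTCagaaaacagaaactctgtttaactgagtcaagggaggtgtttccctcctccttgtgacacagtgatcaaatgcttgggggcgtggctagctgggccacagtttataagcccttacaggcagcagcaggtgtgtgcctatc
Ifih1: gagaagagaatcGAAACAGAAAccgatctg
In Ifitm3 the pair of matches starts 2 and 19 bases after the start site, in Ifitm2 the match starts 46 bases before it, in Gbp2 59 bases before it and in Rsad2 120 bases before it. A match is a run of letters, and members with the same core rose, fell or were not called.

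**Figure D3:**
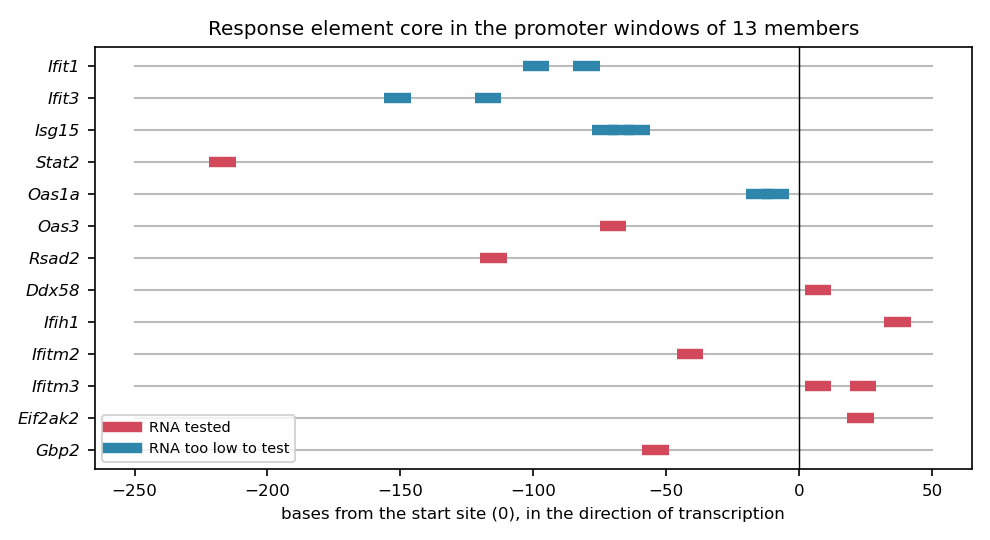
Positions of the response element core in the promoter windows of the 13 members that hold it, in bases from the start site along the direction of transcription; each thick bar is 1 match of 10 bases. The 4 members whose RNA was too low to test (blue) hold 2 or 3 matches each, all before the start site, and the matches of Ddx58, Ifih1, Ifitm3 and Eif2ak2 lie after it.

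Both chains of the type I interferon receptor were higher in the 2 knockouts, and most of all in Ebf1-KO. Ifnar2, the ligand-binding chain (NM_010509, chr16:91372783-91405587), read 248, 267 and 299 in WT, 2118, 1561 and 1726 without Ebf1, and 631, 555 and 778 without Pax5. The 3 groups did not overlap, with every Ebf1-KO library above every Pax5-KO library and these above WT. Its mean was 6.64 times that of WT in Ebf1-KO and 2.41 times in Pax5-KO, and the changes were 2.41 (SE 0.16, adjusted p = 8.77e-10), 0.98 (adjusted p = 9.33e-06) and, between the knockouts, 1.41 (adjusted p = 2.18e-06). Ifnar1, the other chain (NM_010508, chr16:91485215-91510522), read 412, 415 and 445 in WT, 1313, 1001 and 1073 without Ebf1, and 619, 563 and 661 without Pax5. It followed the same order without overlap but over a narrower range. Its changes were 1.10 in Ebf1-KO (SE 0.14, adjusted p = 3.64e-07), 0.25 in Pax5-KO (adjusted p = 0.00506) and 0.82 between them (adjusted p = 0.000102). The Pax5-KO call of Ifnar1 was lost with TMM scaling (adjusted p = 0.0696), edgeR (0.0922) and DESeq2 (0.0958).

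All 4 transcription factors among the members were higher in Ebf1-KO, and of these only Stat2 was called higher in Pax5-KO. Irf7, the factor that amplifies interferon production (NM_016850, chr7:141263183-141266424), read 6.73, 8.45 and 5.71 in WT, 19.8, 20.9 and 22.1 without Ebf1, and 7.41, 10.5 and 10.4 without Pax5. The Ebf1-KO libraries stood apart, while WT and Pax5-KO overlapped. Its changes were 1.17 in Ebf1-KO (SE 0.22, adjusted p = 4.75e-05), 0.11 in Pax5-KO (adjusted p = 0.167, not called) and 1.04 between the knockouts (adjusted p = 0.00131). Irf9, a DNA-binding partner of STAT2, averaged 60.9 ± 3.26 in WT, 122 ± 1.92 without Ebf1 and 74.7 ± 13.7 without Pax5, and its change of 0.69 in Ebf1-KO was called (adjusted p = 0.000134). Stat2 averaged 205 ± 18.3, 361 ± 8.38 and 300.5 ± 47.9 (SD, n = 3 each). Its change was 0.51 in Ebf1-KO (adjusted p = 0.000218), against 0.26 in Pax5-KO (adjusted p = 0.00728), the second lost with TMM scaling (adjusted p = 0.162), edgeR (0.177) and DESeq2 (0.175). With the replicate number as a block Stat2 also differed between the knockouts (adjusted p = 0.0345), where the fit without a block gave 0.183. Irf1, the factor first named for the interferon-beta promoter, averaged 87.3 ± 14.3, 139 ± 41.2 and 93.7 ± 17.3. Its call in Ebf1-KO (0.33, adjusted p = 0.0238) was lost with TMM scaling (0.264), edgeR (0.248) and DESeq2 (0.211), and without WT replicate 2 (0.115) or Ebf1-KO replicate 1 (0.137). Between the knockouts Irf1 was not called (adjusted p = 0.0829), but was with the replicate block (0.00234) or without Ebf1-KO replicate 2 (0.0349).

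Of the 3 tested sensor genes, 1 was called between the knockouts. This was Ifih1, which encodes the long double-stranded RNA sensor MDA5 (NM_027835, chr2:62595793-62646255), read 27.5, 27.1 and 33.6 in WT, 57.2, 69.6 and 69.5 without Ebf1, and 16.2, 22.2 and 19 without Pax5. No library of any genotype overlapped another genotype, with Ebf1-KO above WT and Pax5-KO below it. Its change was 0.82 in Ebf1-KO (SE 0.20, adjusted p = 0.000167), against -0.88 in Pax5-KO (SE 0.20, adjusted p = 0.0215). The 2 knockouts differed by 1.68 (adjusted p = 3.6e-06). The Pax5-KO call was lost without WT replicate 3 (adjusted p = 0.0818) or without Pax5-KO replicate 1 (0.0714). Ddx58, the gene of the RNA sensor RIG-I (NM_172689, chr4:40203777-40239825), read 42.1, 59.9 and 73.7 in WT, 136, 159.8 and 157 without Ebf1, and 81.2, 112 and 115 without Pax5. It was above WT in every knockout library, by 1.07 in Ebf1-KO (adjusted p = 4.72e-05) and 0.54 in Pax5-KO (adjusted p = 0.0051). Its difference between the knockouts, 0.51, missed the threshold (adjusted p = 0.057) but passed it with TMM scaling (0.0179), edgeR (0.0132), DESeq2 (0.00275) and the replicate block (0.00215), and without WT replicate 1 (0.0252), WT replicate 3 (0.0428) or Pax5-KO replicate 3 (0.0356). Trim25, the ubiquitin ligase that acts with RIG-I, averaged 1408 ± 145, 1585 ± 171 and 1733 ± 287 and was not called, except in Pax5-KO with the replicate block (adjusted p = 0.0073) or without Pax5-KO replicate 1 (0.0416). With all libraries its change in Pax5-KO was 0.29 before the median of all genes was subtracted and 0.01 after. Zbp1, a sensor of Z-form nucleic acid, was too low to test, at or below 0.561 in every library.

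The 3 Ifitm genes, which encode small membrane proteins that block virus entry, had 3 different patterns although they lie close together on chromosome 7. Ifitm1 (NM_001112715, chr7:140968076-140969827) read 33.4, 24.3 and 23.5 in WT, 1153, 1026 and 1245 without Ebf1, and 2638, 3051 and 5193 without Pax5. All knockout libraries were far above WT, and those of Pax5-KO above those of Ebf1-KO. The mean was 42.2 times that of WT in Ebf1-KO and 134 times in Pax5-KO. The changes were 5.05 (SE 0.22, adjusted p = 1.19e-11) and 6.69 (SE 0.22, adjusted p = 1.48e-12), and -1.65 between Ebf1-KO and Pax5-KO (adjusted p = 2.19e-05). Ifitm3 (NM_025378, chr7:141009590-141010744), the member best known for blocking influenza virus, read 11.2, 15.1 and 10.6 in WT, 13.8, 8.79 and 6.90 without Ebf1, and 905, 1040.1 and 1659 without Pax5. It was high in Pax5-KO alone, while WT and Ebf1-KO overlapped. Its change was 6.18 in Pax5-KO (SE 0.26, adjusted p = 2.94e-11) and -6.84 in Ebf1-KO against Pax5-KO (adjusted p = 2.39e-11). In Ebf1-KO against WT it was -0.64 and not called (adjusted p = 0.296), but called lower with TMM scaling (0.045) and DESeq2 (0.0298). Ifitm2 (NM_030694, chr7:140954839-140955961) read 467, 519 and 550.5 in WT, 251, 184 and 223 without Ebf1, and 1386, 1699 and 2542 without Pax5. Here the 2 knockouts lay on opposite sides of WT without overlap. Ifitm2 changed by -1.54 in Ebf1-KO (SE 0.19, adjusted p = 6.73e-05), by 1.55 in Pax5-KO (adjusted p = 1.5e-06) and by -3.10 between them (adjusted p = 5.14e-09). The Ifitm genes are close copies of each other, and how reads that match several of them were counted was not stated, so the division of reads among them is uncertain. Their neighbour Ifitm5, a bone gene of the family, averaged 5.33, 4.08 and 9.73 in WT, Ebf1-KO and Pax5-KO.

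**Figure D4:**
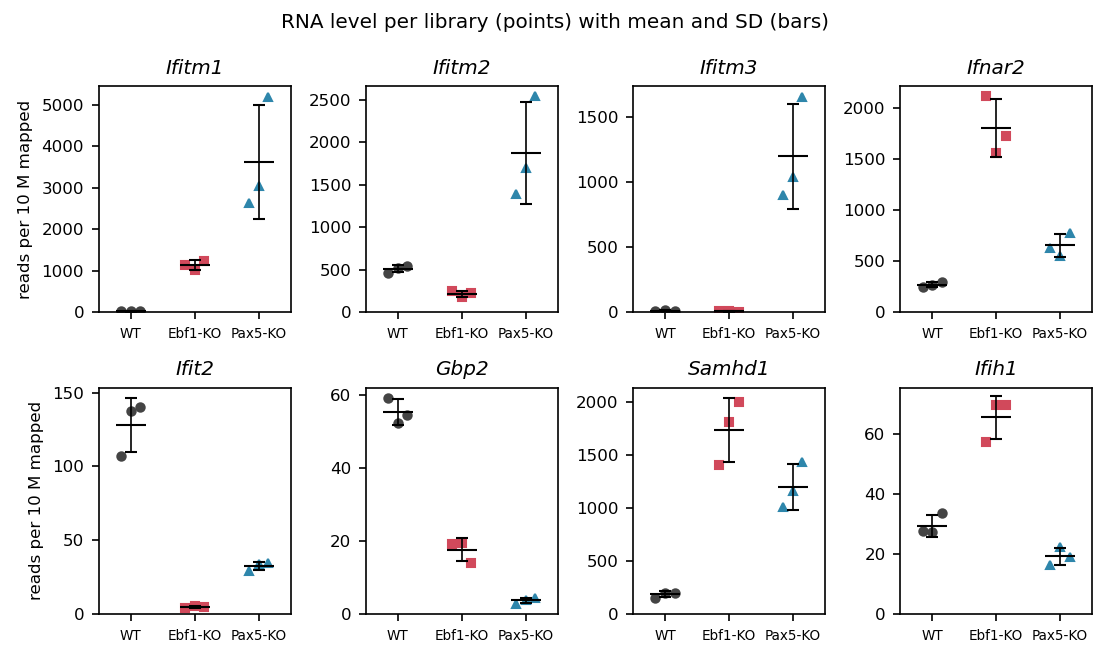
RNA level of 8 members in each library (points), in exon reads per 10 M mapped reads on a linear axis from 0, with the mean and SD of the 3 libraries of each genotype. Ifitm3 is high in Pax5-KO alone, Ifnar2 peaks in Ebf1-KO, Ifit2 and Gbp2 are highest in WT, and Ifih1 is above WT in Ebf1-KO and below it in Pax5-KO.

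Of the 3 Ifit members only Ifit2 had enough RNA to test, and it fell in both knockouts. It encodes a protein of the family that binds viral RNA and blocks its translation (NM_008332, chr19:34550694-34576534). It read 107, 137 and 140.0 in WT, 3.85, 5.13 and 4.66 without Ebf1, and 29.1, 33.9 and 34.6 without Pax5. The groups did not overlap, and Ebf1-KO was lowest. Ifit2 changed by -4.85 in Ebf1-KO (SE 0.20, adjusted p = 3.11e-11), by -2.22 in Pax5-KO (adjusted p = 9.78e-07) and by -2.64 between the knockouts (adjusted p = 4.3e-08). Its close relatives Ifit1 and Ifit3 did not exceed 1.38 and 1.43 in any library and were not tested. In the authors' deposited tables of changed genes, Ifit3 is listed as lower in both knockouts, with log2 fold changes of -3.30 and -3.58, from these few reads. Ifit1bl1, a neighbouring gene of the same family, averaged 44.5 ± 6.26 in WT, 0 without Ebf1 and 0.238 ± 0.11 without Pax5. Against a floor of 3 reads over the Ebf1-KO libraries it was at least 181-fold lower there, and both knockouts were called lower (adjusted p = 1.89e-11 and 6.87e-11).

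The oligoadenylate synthetase family, whose enzymes activate RNase L, was low in all genotypes, and its 3 tested members were higher in Ebf1-KO than in Pax5-KO. Oasl2 (NM_011854, chr5:114896934-114912245) read 0.28, 0.704 and 0.634 in WT, 11, 17.2 and 13.4 without Ebf1, and 2.28, 1.90 and 2.25 without Pax5. It rose without overlap in both knockouts, by 2.96 (SE 0.25, adjusted p = 1.92e-08) and 0.76 (adjusted p = 0.00303), and differed by 2.18 between them (adjusted p = 2.78e-06). Oas2 (NM_145227, chr5:120730333-120749848) read 0, 0.704 and 0.476 in WT, 6.88, 4.76 and 4.31 without Ebf1, and 1.42, 1.90 and 0.449 without Pax5. Ebf1-KO lay above both other groups, which overlapped. Its changes were 1.89 in Ebf1-KO (adjusted p = 2.51e-05), 0.39 in Pax5-KO (adjusted p = 0.0915, not called, but 0.0291 without Pax5-KO replicate 3) and 1.47 between them (adjusted p = 0.00126). Oas3 averaged 4.56 ± 1.06, 7.25 ± 1.85 and 3.45 ± 1.15. It was called between the knockouts only (0.85, adjusted p = 0.02), a call lost with DESeq2 (0.0531) and without Ebf1-KO replicate 1 (0.08) or 3 (0.0733) or Pax5-KO replicate 1 (0.0804) or 3 (0.0515). Against WT, Oas3 in Ebf1-KO had an adjusted p of 0.0949, and of 0.0443 without Ebf1-KO replicate 2. Oas1a was at 0 in WT and Ebf1-KO. Counting among close copies is uncertain here too; Oas1c, a neighbouring copy outside the list, averaged 17.4 ± 5.62, 5.24 ± 2.22 and 19.5 ± 4.76.

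Among the other antiviral effectors, Samhd1 and Gbp2 had the largest called changes. Samhd1, which depletes the nucleotide pool that retroviruses need (NM_001139520, chr2:157097529-157135222), read 154, 200.1 and 202 in WT, 1408, 1817 and 1999 without Ebf1, and 1008, 1161 and 1434 without Pax5. Every knockout library was far above WT, and the 2 knockouts overlapped. It rose by 2.91 in Ebf1-KO (SE 0.17, adjusted p = 3.39e-10) and by 2.41 in Pax5-KO (adjusted p = 4.82e-09). The difference of 0.49 between the knockouts (adjusted p = 0.0273) was lost without Ebf1-KO replicate 2 (0.0977) or 3 (0.12) or Pax5-KO replicate 1 (0.108) or 2 (0.0872). Gbp2, a guanylate-binding protein that attacks intracellular pathogens (NM_010260, chr3:142620663-142638008), read 59.2, 52.1 and 54.4 in WT, 19.2, 19.4 and 14 without Ebf1, and 2.85, 3.80 and 4.38 without Pax5. It fell without overlap in both knockouts, and Pax5-KO was lowest. The changes were -1.92 (SE 0.22, adjusted p = 1.42e-05) and -3.88 (SE 0.22, adjusted p = 2.37e-09), with 1.94 between Ebf1-KO and Pax5-KO (adjusted p = 2.55e-06).

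Rsad2, Isg20 and Xaf1 were each higher in Ebf1-KO than in Pax5-KO. Rsad2, which encodes the antiviral enzyme viperin (NM_021384, chr12:26442743-26456452), read 0.561, 0.704 and 0.159 in WT, 21.2, 5.86 and 3.79 without Ebf1, and 1.14, 0.317 and 0 without Pax5. Ebf1-KO stood above the other groups, with 1 library well above its partners, and WT and Pax5-KO overlapped. Rsad2 rose by 2.32 in Ebf1-KO (SE 0.46, adjusted p = 0.000174) and was not called in Pax5-KO (-0.32, adjusted p = 0.947), and the knockouts differed by 2.63 (adjusted p = 0.000247). Isg20, an exonuclease that cuts viral RNA (NM_001291220, chr7:78913424-78920396), read 21, 29.9 and 24.9 in WT, 34.9, 34.4 and 47.9 without Ebf1, and 11.1, 14.9 and 14.9 without Pax5. Its groups did not overlap. Isg20 fell by 1.12 in Pax5-KO (adjusted p = 0.00599), and the knockouts differed by 1.40 (adjusted p = 7.84e-05). Its rise of 0.30 in Ebf1-KO (adjusted p = 0.0298) was lost with TMM scaling (0.16), edgeR (0.143), DESeq2 (0.169) and no filter (0.0514), and without WT replicate 1 (0.111), WT replicate 3 (0.0651) or Ebf1-KO replicate 3 (0.153). Xaf1, a gene linked to interferon-induced cell death (NM_001037713, chr11:72301629-72313733), read 8.41, 9.86 and 12.2 in WT, 8.25, 14.3 and 13.4 without Ebf1, and 1.99, 4.12 and 5.50 without Pax5. Only the Pax5-KO libraries stood apart, below the rest, with changes of -1.53 against WT (adjusted p = 0.00337) and 1.41 between the knockouts (adjusted p = 0.00136).

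Mx2, of a family of dynamin-like GTPases that trap viral particles (NM_013606, chr16:97536083-97560899), read 3.08, 1.06 and 2.54 in WT, 6.05, 4.4 and 5.52 without Ebf1, and 1.42, 0.317 and 0.112 without Pax5. The knockouts stood apart from each other, and Pax5-KO overlapped WT. They differed by 2.00 (adjusted p = 0.000148). The Ebf1-KO change of 0.71 against WT (adjusted p = 0.0169) was lost with TMM scaling (0.085), edgeR (0.174), DESeq2 (0.285) and a pseudocount of 0.25 (0.0576), and without WT replicate 2 (0.0935) or Ebf1-KO replicate 1 (0.0553). The Pax5-KO change of -1.30 (adjusted p = 0.0208) was lost without WT replicate 1 (0.0973), WT replicate 3 (0.0642), Pax5-KO replicate 2 (0.0721) or Pax5-KO replicate 3 (0.096). Mx1, its neighbour and relative, had too few reads to be tested, with 0, 0.352 and 0.159 in WT, 5.50, 1.83 and 0.172 in Ebf1-KO, and 0 in each Pax5-KO library. The C57BL6/J strain is known to carry a defective Mx1 gene. Whether Mx2 RNA encodes an active protein in this strain was not checked. Eif2ak2, the kinase PKR that halts translation, averaged 568 ± 55.3, 784 ± 46.4 and 775 ± 58.6. Its changes of 0.16 and 0.17 were called (adjusted p = 0.00634 and 0.0104), but both were lost with edgeR (0.134 and 0.0708) and DESeq2 (0.0981 and 0.068), and the first also with TMM scaling (0.0978).

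Of the 5 tested members of the ubiquitin-like and ADP-ribose group, Herc6 was lower in both knockouts and Usp18 in Pax5-KO, and the other 3 were not called. Herc6, the mouse ligase that attaches ISG15 (NM_025992, chr6:57580992-57665136), read 159.6, 218 and 209 in WT, 56.1, 64.5 and 75.7 without Ebf1, and 86.9, 134 and 116 without Pax5. WT was highest and Ebf1-KO lowest, without overlap. Herc6 changed by -1.87 in Ebf1-KO (SE 0.20, adjusted p = 6.35e-06), by -1.08 in Pax5-KO (adjusted p = 0.00369) and by -0.81 between them (adjusted p = 0.00702). Usp18, the protease that removes ISG15 and damps receptor signalling (NM_011909, chr6:121245906-121270917), read 3.37, 7.04 and 7.14 in WT, 7.70, 8.79 and 7.24 without Ebf1, and 1.14, 2.54 and 0.673 without Pax5. It was low in Pax5-KO, below every other library. Usp18 changed by -1.78 in Pax5-KO (adjusted p = 0.00119) and was not called in Ebf1-KO (0.13, adjusted p = 0.258), and the knockouts differed by 1.89 (adjusted p = 0.00015). Parp9, Parp14 and Dtx3l, which lie close together on chromosome 16, averaged 169 to 174, 414 to 469.8 and 394 to 458 over the genotypes and were not called. Parp9 was however called lower in both knockouts with TMM scaling (adjusted p = 0.0276 and 0.0415), edgeR (0.0218 and 0.0297) and DESeq2 (0.0174 and 0.0169). Dtx3l in Pax5-KO was called higher with the replicate block (adjusted p = 0.0452). Its change was 0.22 before the median of all genes was subtracted and -0.06 after. Ifi35, an interferon-induced protein with a leucine zipper, averaged 48.2 ± 11.9, 52.5 ± 10.9 and 53.1 ± 16.6 and was not called.

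Outside the 37 members, the other genes of the pathway were counted from lists of ligands, signalling parts and targets. Of 21 interferon genes in the table, 1 had enough reads: Ifnk, the interferon of keratinocytes, averaged 1.15 ± 0.445, 4.98 ± 1.23 and 12 ± 2.83 in WT, Ebf1-KO and Pax5-KO and was called higher in both knockouts (adjusted p = 0.000278 and 1.25e-06). Ifng, the type II interferon, had too few reads to be tested: it was at 0 in every WT and Pax5-KO library and at 1.93, 2.93 and 1.90 in the Ebf1-KO libraries, at least 9.54-fold higher than WT. The lists below stand beside 40.8% of all genes higher and 14.4% lower without Ebf1, against 34.7% and 11.9% without Pax5. Of 15 other receptor chains, kinases and brakes, 8 rose and 2 fell in Ebf1-KO, and 7 rose and 1 fell in Pax5-KO. Socs1, a feedback inhibitor of the JAK kinases, averaged 2.59 ± 0.414, 23.0 ± 11.3 and 20.6 ± 6.40 and rose in both (adjusted p = 5e-06 and 1.02e-05). Of 6 other interferon regulatory factors, 2 rose and 3 fell in Ebf1-KO, and 1 rose and 3 fell in Pax5-KO. Irf4, a factor of lymphocyte development, fell from 3177 ± 672 to 81.7 ± 6.17 and 373 ± 48.2 (adjusted p = 8.21e-13 and 6.64e-10).

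Of 21 tested sensors, adaptors and kinases, 14 rose and 3 fell in Ebf1-KO, and 11 rose and 2 fell in Pax5-KO. Mb21d1, the DNA sensor cGAS, averaged 1.43 ± 0.311 in WT, 567 ± 62.5 without Ebf1 and 80.5 ± 11.9 without Pax5 (adjusted p = 5.45e-14 and 1.06e-11). Tmem173, its adaptor STING, averaged 115 ± 6.26, 681 ± 55.5 and 702 ± 145 (adjusted p = 1.19e-09 and 1.74e-09). Tlr7, a receptor for single-stranded RNA in endosomes, averaged 4.63 ± 2.40, 415 ± 78.8 and 1041 ± 155, and Unc93b1, which carries such receptors to the endosome, fell from 348 ± 44.2 to 103 ± 1.33 and 162 ± 33.7. Of 57 tested other interferon-stimulated genes, 30 rose and 14 fell in Ebf1-KO, and 20 rose and 15 fell in Pax5-KO, where the 35.1% that rose was near the share of all genes and 26.3% fell. Slfn8 averaged 7.25 ± 0.541, 311 ± 45.6 and 96.7 ± 7.98. Iigp1, an interferon-inducible GTPase, was at 0 in WT and Pax5-KO and at 25.3 ± 3.63 in Ebf1-KO, at least 107-fold higher than in WT against a floor of 3 reads over the WT libraries (adjusted p = 1.22e-10). Ccl5, a chemokine that T and NK cells also express, averaged 1.38 ± 0.981, 73.9 ± 8.35 and 2.32 ± 1.69, and was called in Ebf1-KO (adjusted p = 5.47e-09).

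Chromatin at the members was read from ATAC-seq tags, in tags per 10 M, over peaks that the authors had split by binding of EBF1 alone, PAX5 alone or both. Tags ran from 15.3 to 38.6 M per library. The files annotate 34 such peaks to 22 of the members and none to the other 15. Of the 34, 22 were EBF1-only, 11 PAX5-only and 1 shared, and 15 lay within 1 kb of a start site. In Ebf1-KO against WT, 1 peak was called higher, 10 lower and 23 not called, beside 54.4% called over all 14365 peaks tested (3.28% higher and 51.1% lower). In Pax5-KO against WT, 1 was higher, 13 lower and 20 not called, beside 53.7% (2.11% higher and 51.5% lower). In Ebf1-KO against Pax5-KO, 3 were higher and 31 not called, beside 21.7% of all peaks called (9.06% higher and 12.6% lower). The share called lower near the members was thus below that over all peaks in both comparisons against WT. Within 1 kb of a start site, 2 of 15 peaks were lower in Ebf1-KO and 4 of 15 in Pax5-KO. Beyond 1 kb, 8 of 19 were lower in Ebf1-KO and 9 of 19 in Pax5-KO. The share over all peaks was not split by distance. Over all peaks the median log2 fold change was -0.78 for Ebf1-KO, -0.75 for Pax5-KO, against -0.28 and -0.53 at the members. Changes at peaks are given below without subtracting that median. TMM scaling removes most of this shift and gave 10 higher and 4 lower in Ebf1-KO, beside 20.4% higher and 29.8% lower of all peaks, and 5 higher and 2 lower in Pax5-KO, beside 13.7% and 21.3%.

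The Ifit2 gene holds a PAX5-only peak in its first intron (chr19:34569771-34570019, GRCm38), which the files annotate to Ifit3. It read 7.84, 5.13 and 8.29 tags in WT, 0, 0.91 and 0.32 without Ebf1, and 0.71, 1.86 and 2.17 without Pax5. Every WT library was above every knockout library, as for Ifit2 RNA. The peak changed by -2.55 in Ebf1-KO (SE 0.38, adjusted p = 1.19e-08) and by -1.67 in Pax5-KO (SE 0.38, adjusted p = 0.000126), the second lost with TMM scaling (0.0555). Its difference between the knockouts was not called (adjusted p = 0.0917), but was with TMM scaling (0.0462) or without Pax5-KO replicate 1 (0.0413). The same intron also holds an EBF1-only peak (chr19:34569378-34569648). That peak averaged 1.95 ± 1.01 in WT, 0.777 ± 0.135 without Ebf1 and 1.23 ± 0.625 without Pax5, and was not called in any comparison. An EBF1-only peak downstream of Trim25 (chr11:89027999-89028269) read 17.6, 16.2 and 18.4 in WT, 6.23, 5.75 and 10.9 without Ebf1, and 6.35, 7.16 and 4.78 without Pax5. It was also lower in both knockouts without overlap (-1.14 and -1.39, adjusted p = 0.000324 and 1.84e-05), calls that TMM scaling removed (0.308 and 0.088), while Trim25 RNA was not called. The PAX5-only peak in Ifit2 and this Trim25 peak are shown on the plus strand. Both were lower in the knockouts while the RNA results of the genes beside them differed. They were chosen after their values were seen. Capitals in the second mark an ETS-IRF composite, GGAA then any 2 bases then GAAA, read on the minus strand.
Ifit2 intron peak: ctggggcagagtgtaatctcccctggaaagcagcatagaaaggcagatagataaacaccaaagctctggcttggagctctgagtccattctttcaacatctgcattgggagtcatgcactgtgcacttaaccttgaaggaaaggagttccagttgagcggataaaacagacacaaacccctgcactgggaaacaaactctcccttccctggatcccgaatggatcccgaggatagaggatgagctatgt
Trim25 distal peak: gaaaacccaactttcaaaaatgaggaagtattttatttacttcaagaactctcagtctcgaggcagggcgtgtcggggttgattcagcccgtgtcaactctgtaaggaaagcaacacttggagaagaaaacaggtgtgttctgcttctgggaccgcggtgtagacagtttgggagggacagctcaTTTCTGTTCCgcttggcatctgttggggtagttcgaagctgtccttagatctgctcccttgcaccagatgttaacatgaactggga
The ETS-IRF composite, searched on both strands, stood in 3.52% of EBF1-only, 4.64% of shared and 5.03% of PAX5-only peaks, and in 2 of the 22 EBF1-only peaks at members, both at Trim25. The response element core stood in 4.02%, 4.91% and 4.83% of these peak classes. At members it stood in 3 of 22 EBF1-only, 0 of 1 shared and 1 of 11 PAX5-only peaks. A palindrome of the EBF1 site, TCCC then any 2 bases then GGGA, stood in 27.2%, 14.1% and 0.775% of the peak classes, and in 5 of the 22 EBF1-only peaks at members.

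Around Ifnar2, whose RNA rose in both knockouts, the 3 PAX5-only peaks did not move together, and the peak inside the gene was not called. The peak 5957 bases upstream (chr16:91366702-91366950) read 24.8, 19.1 and 20.7 in WT, 33.5, 39.6 and 44.2 without Ebf1, and 24.3, 18.3 and 15.2 without Pax5. Only Ebf1-KO stood apart, above the rest, by 0.83 against WT (SE 0.26, adjusted p = 0.00476) and by 1.00 against Pax5-KO (adjusted p = 0.00241), and Pax5-KO against WT was not called (-0.17, adjusted p = 0.606) but was higher with TMM scaling (0.00165). The peak 24057 bases upstream (chr16:91348602-91348850) averaged 4.55 ± 1.42, 1.49 ± 0.529 and 0.937 ± 0.444 (SD, n = 3 each). It changed by -1.15 in Ebf1-KO (adjusted p = 0.00715, but 0.0594 without WT replicate 3) and by -1.51 in Pax5-KO (adjusted p = 0.000465), and both calls were lost with TMM scaling (0.29 and 0.0662). The shared peak inside Irf7 (chr7:141265541-141265842) averaged 13.5 ± 1.16, 5.19 ± 0.547 and 5.09 ± 0.532. It fell in both knockouts (-1.22 and -1.25, adjusted p = 0.000186 and 0.000173), while Irf7 RNA rose in Ebf1-KO and was not called in Pax5-KO. Less the median of all peaks, the Irf7 peak changed by -0.44 and -0.50. TMM scaling removed both peak calls (0.187 and 0.228). In the authors' deposited list of PAX5 peaks at genes lower in WT than in Pax5-KO, Ifnar2 is the 1 member, with 3 peaks.

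Of the Ifitm genes, Ifitm1 and Ifitm2 had a peak within 1 kb of the start site. The EBF1-only peak at the Ifitm1 start site (chr7:140967848-140968118) read 13.7, 6.27 and 10.1 in WT, 10.5, 16.6 and 17.9 without Ebf1, and 25.4, 14.6 and 17.8 without Pax5. Pax5-KO was above WT without overlap (0.90, SE 0.28, adjusted p = 0.0041). Ebf1-KO overlapped WT and was not called (0.56, adjusted p = 0.0761), but was higher with TMM scaling (1.22e-06) and without WT replicate 1 (0.0136) or Ebf1-KO replicate 1 (0.0287). The EBF1-only peak at the Ifitm2 start site (chr7:140955869-140956139) averaged 11.4 ± 1.11, 7 ± 1.18 and 7.4 ± 1.30. It was lower in Ebf1-KO (-0.64, adjusted p = 0.0468), a call lost with TMM scaling (0.608) and without any of WT replicates 1 or 3, Ebf1-KO replicates 1 or 2 or Pax5-KO replicate 2 (adjusted p 0.0564 to 0.152). The peak was not called in Pax5-KO (-0.58, adjusted p = 0.0785), where Ifitm2 RNA rose. Less the median of all peaks, the Ifitm2 peak changed by 0.14 in Ebf1-KO and 0.17 in Pax5-KO. The peak at the Ifih1 start site (chr2:62646078-62646348), which holds the response element core shown above, averaged 23.3 ± 5.89, 25.2 ± 3.80 and 14.3 ± 8.40. It was lower in Pax5-KO (-0.78, adjusted p = 0.0132), and lower there than in Ebf1-KO (0.91 between the knockouts, adjusted p = 0.0106). Pax5-KO replicate 2 decided both calls (adjusted p = 0.268 and 0.243 without it); without WT replicate 3 the first was lost (0.0705), without Ebf1-KO replicate 3 the second (0.0731), and with TMM scaling the first (0.766). Its change in Ebf1-KO was called higher with TMM scaling (0.000305). Less the median of all peaks, the Ifih1 peak changed by -0.04 in Pax5-KO, near the median peak. Ifih1 RNA changed there by -0.88 less the median of all genes.

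Of the other peaks within 1 kb of a start site, those of Trim25 and Dtx3l were lower in Pax5-KO (-0.68 and -0.76, adjusted p = 0.0218 and 0.0318). Less the median of all peaks these changes were 0.06 and -0.01. Both calls were lost with TMM scaling (0.403 and 0.941) and with 1 library left out: for Trim25 without WT replicate 1 (0.0986), WT replicate 3 (0.0635) or Pax5-KO replicate 2 (0.11), and for Dtx3l without WT replicate 1 (0.0762), WT replicate 3 (0.102), Pax5-KO replicate 2 (0.0818) or Pax5-KO replicate 3 (0.16). The peaks at Usp18, Oasl2, Irf1, Parp14, Ifnar1, Irf9, Herc6, Samhd1 and Oas2 were not called in any comparison with the deposited scaling and all libraries. With TMM scaling several were higher in Ebf1-KO against WT, namely Usp18 (adjusted p = 0.00911), Ifnar1 (0.000473), Irf9 (0.000108) and Herc6 (1.69e-06). The Trim25 peak was then also higher in Ebf1-KO (0.0336), and the Usp18 (0.0241) and Herc6 (0.00018) peaks in Pax5-KO. Without WT replicate 1 Herc6 was higher in Ebf1-KO (0.00643), and without Pax5-KO replicate 1 Ifnar1 was lower in Pax5-KO (0.0316). Away from the start sites, a PAX5-only peak inside Oasl1 (chr5:114926835-114927083) fell from 7.81 ± 0.629 to 1.62 ± 0.692 and 1.29 ± 0.393 (adjusted p = 1.57e-05 and 3.1e-06), and Oasl1 had no reads in any genotype. The 3 peaks annotated to Zbp1, also a gene with almost no reads, lie in or at the end of Pmepa1. The largest of them (chr2:173243817-173244087) fell from 22.6 ± 9.46 to 4.84 ± 1.00 and 1.80 ± 1.57, by -1.95 and -3.22 (adjusted p = 6.68e-07 and 9.89e-14). A PAX5-only peak beyond the end of Usp18 (chr6:121272285-121272533) averaged 16.2 ± 3.66, 9.2 ± 1.18 and 6.5 ± 1.15. It was lower in Pax5-KO (-1.19, adjusted p = 0.000169), as was Usp18 RNA, and in Ebf1-KO (-0.74, adjusted p = 0.0184). Less the median of all peaks these changes were -0.44 and 0.04. The Ebf1-KO call was lost without WT replicate 1 (0.0984), Ebf1-KO replicate 1 (0.0557) or 2 (0.0665), and TMM scaling removed both (0.758 and 0.271).

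**Figure D5:**
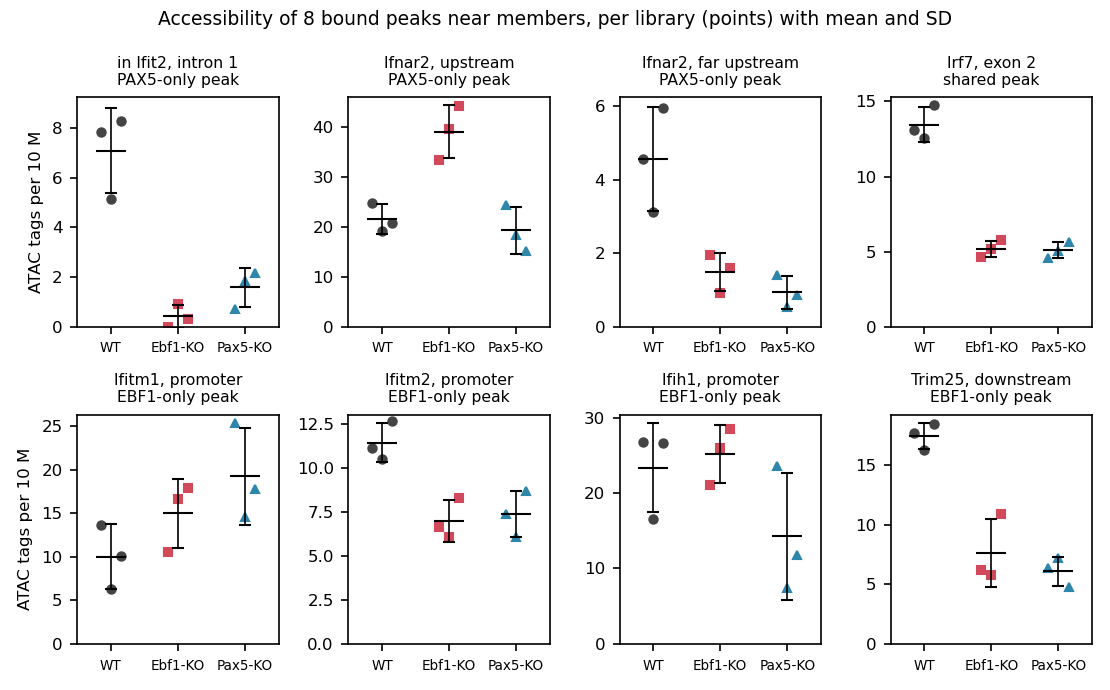
ATAC-seq tags per 10 M in each library (points) at 8 bound peaks near members, on linear axes from 0, with the mean and SD of the 3 libraries of each genotype; the line under each name gives which factor binds the peak. The peaks in Ifit2, in Irf7 and downstream of Trim25 are lower in every knockout library than in WT, the upstream peak of Ifnar2 is higher in Ebf1-KO, and the Ifitm1 promoter peak is higher in Pax5-KO.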

How the data were processed

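RNA was sequenced for 76 cycles, single read, and ATAC-seq used 80k cells, per the labels' protocols. The submitters' processing notes name TopHat, HOMER, edgeR and DESeq2 for RNA and Bowtie2 and HOMER for ATAC-seq, with builds mm10 and GRCm38. Versions, and how reads matching several genes were treated, were not stated there. The authors deposited normalised signal values: exon reads per gene and ATAC tag coverage per peak, both scaled to 10 M mapped reads, with mapped totals per the file headers. They also deposited tables of changed genes with log2 fold changes and adjusted p-values, and peak lists with a score per peak, used here as listed. Counts were recovered from the RNA signal as whole reads in 100% of values (within 0.1 reads).

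The 37 members were matched by symbol. Members, lists and alternatives were chosen with earlier results of these data known. The tests covered 12839 genes, kept by filterByExpr of edgeR from their recovered reads, and the 14365 of 14377 peaks that had at least 10 tags. They were made with limma 3.58.1 in R 4.3.3, on log2(value + 1) with a mean-variance trend, 1 mean per genotype over 9 libraries, two-sided, with Benjamini-Hochberg adjustment. Such fold changes understate the change of low genes. Floors are 3 reads over the 3 libraries of a genotype and cover counting error only.

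Alternatives were TMM scaling, edgeR 4.0.16 quasi-likelihood, DESeq2 1.42.0, pseudocounts of 0.25 (RNA) and 4 (ATAC), no filter, a replicate block, and each library left out. Same-numbered RNA libraries of different genotypes deviated together (r from 0.116 to 0.439 across genes in every pair), so the numbers were taken to pair the RNA samples. The pairing comes from the numbers in the labels. The main RNA fit left it out, so RNA calls and adjusted p-values given without a named setting ignore the pairing. The replicate block is the alternative that uses it, and the calls of members that it changed are given with each gene. Values in every library are given for members called in at least 1 RNA comparison with an absolute change of at least 1, and for any untested member with a mean of at least 1; up to 4 called genes of each other list were eligible to be named. Ifitm5, Oas1c, Ifng and Pdgfrb were added after their values were seen. Named peaks are those within 1 kb of a start site and up to 10 others by absolute change. The EBF1-only peak in Ifit2 was added after its values were seen. Gene positions are those of the deposited table, and promoter and peak sequences and windows are from RefSeq GRCm38.p6. Analyses used Python 3.11.15.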

Additional observations from a re-analysis of the deposited data

How the results depend on the processing

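Over 87 gene and comparison pairs (29 members in 3 comparisons), 77 kept their call with TMM scaling, 77 with edgeR and 75 with DESeq2. With a pseudocount of 0.25, 86 did so, and 86 without the filter. A pair kept its call if both fits called it in the same direction, or neither called it. Direction was not compared where neither fit called a pair. The 3 fits with TMM or DESeq2 scaling lowered the number of members called against WT. Parp9 in Ebf1-KO, not called and just above 0 before the median was subtracted, was called lower in all 3 of these fits, at -0.31 less the median in each. Leaving out 1 library kept 755 of 783. The replicate block kept 82 of 87 and added 5 calls among members, with 20 members called in Ebf1-KO, 20 in Pax5-KO and 23 between the knockouts, beside 68.4%, 62.9% and 43.8% of all genes; it changed no other call of a member.

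ATAC calls against WT depended on scaling. With TMM scaling 70 of 102 peak and comparison pairs kept their call, by the rule given above for genes. The counts became 10 higher and 4 lower in Ebf1-KO, 7 called with 5 higher and 2 lower in Pax5-KO, and 5 called with 1 lower between the knockouts. TMM moved the median of all peaks from -0.78 to -0.10 in Ebf1-KO and from -0.75 to 0.03 in Pax5-KO. Among changes called with at least 1 of the 2 scalings, 9 below 0 before the median was subtracted came to lie above 0. Changes called with neither scaling that crossed 0 were not counted. Less the median, 7 of the 9 were above 0 under both scalings. They were, with deposited and then TMM scaling, in Ebf1-KO the promoter peaks of Trim25 (0.39 and 0.58), Ifitm2 (0.14 and 0.27) and Ifnar1 (0.74 and 0.92) and the distal Usp18 peak (0.04 and 0.20), and in Pax5-KO those of Trim25 (0.06 and 0.19), Usp18 (0.70 and 0.74) and the Ifnar2 peak 5957 bases upstream (0.58 and 0.69). The other 2, both in Pax5-KO, crossed 0 on that scale by small amounts, Dtx3l (-0.01 and 0.0047) and Ifih1 (-0.04 and 0.071). Leaving out 1 library gave 1 to 3 peaks higher in Ebf1-KO against WT (3 without WT replicate 1, 2 without Ebf1-KO replicate 1), and 2 to 5 called and 0 to 1 lower between the knockouts (5 and 1 without Pax5-KO replicate 1). ATAC replicate numbers did not pair the samples (r from -0.0523 to 0.11), and the block changed none of the 102. Members with few reads, and 3 libraries per group, limit what small changes could be detected.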
